A study of Homo sapiens with 6 samples.

Results

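IGF-binding proteins, IGF receptors and insulin receptor substrates (IRS) were examined in SUM-159 cells, a line from a triple-negative breast cancer, a tumor class that lacks the hormone receptors and HER2. The members were taken as every probe set annotated to a single symbol among IGFBP2, IGFBP3, IGFBP4, IGFBP5, IGFBP6, IGFBP7, IGF1R, IGF2R, IRS1 and IRS2, which gave 21 of 22215 probe sets for 10 of 10 genes. IGFBP2 was selected on its higher signal in this same comparison, so its values are given as a description without a p. They are set against the 20 probe sets of the other 9 genes. Those genes were chosen as binding proteins, receptors or receptor substrates, with earlier results of these data known. RNA of a stable SH3GL2 transfectant of these cells (3 arrays) and of a stable transfectant carrying the empty vector of the same backbone (3 arrays), both kept in G418, was hybridized to Affymetrix U133A 2.0 arrays. SH3GL2 encodes endophilin A1, a membrane-curving protein of endocytosis. Whether each line was 1 clone or a pool is not stated, and nothing says that the triplicates were separate cultures, so p-values measure only the spread between these arrays.

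Insulin-like growth factors (IGFs) are growth factors of blood and tissue that signal through IGF1R. The high-affinity binding proteins are secreted, hold most of the ligand outside the cell, and can either keep it from the receptor or carry it there. Activated IGF1R phosphorylates the IRS adaptors, which recruit PI3-kinase and start AKT signaling. In breast epithelium and its tumors the axis is known for roles in growth and survival.

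The values were on a log2 scale, and array medians ran from 6.97 to 7.02. Pearson correlations across probe sets lay between 0.9971 and 0.9982 for arrays of the same group and between 0.9947 and 0.9965 for arrays of different groups. Genes specific to other organs (48 genes with 73 probe sets) marked the signal seen where no transcript is made. Their median was 4.69, and their 95th percentile, called the reference percentile here, was 6.91. Over all probe sets, limma called 1.99% higher and 2.18% lower with SH3GL2 at an adjusted p under 0.05, and 19.4% had groups that did not overlap. The probe set of SH3GL2 itself had log2 signals of 3.15, 3.33 and 3.29 with SH3GL2 and 3.24, 3.18 and 3.25 with empty vector, below the reference median in both. Its log2 fold change was 0.03 (adjusted p = 0.909 from limma). The paper reports SH3GL2 overexpression in these cells, but the arrays showed no rise of this probe set, so it could not check the labels. Whether its probes match the transfected sequence is not stated. The mesenchymal marker VIM was bright in both groups. FN1 (fibronectin), another mesenchymal marker, was called lower with SH3GL2 in 4 of 6 probe sets, with log2 fold changes of -0.34 to -0.27. Its remaining probe sets were also lower without overlap, by -0.31 and -0.44, but did not pass (adjusted p = 0.069 and 0.073 from limma). The part of FN1 in the results below was not tested. None of the 22 probe sets of 9 epithelial, luminal, leukocyte and endothelial markers (CDH1, EPCAM, ESR1, PGR, FOXA1, PTPRC, CD14, PECAM1 and CDH5) exceeded the reference percentile in either group. GATA3, a luminal factor, exceeded it in 1 of 3 probe sets.

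IGFBP2 stood higher with SH3GL2, while probe sets of IGFBP3, IRS1 and IRS2 fell and none of a relative passed the adjusted threshold in the higher direction. IGFBP2 is a secreted binding protein that prefers IGF2 and also binds integrins. Its probe set 202718_at had log2 signals of 8.36, 8.55 and 8.43 on the SH3GL2 arrays, against 7.16, 7.35 and 7.21 on the empty vector arrays. All 3 SH3GL2 arrays were high, and the lowest of them lay 1.01 log2 units above the highest empty vector array. The means were 8.45 ± 0.10 with SH3GL2 and 7.24 ± 0.10 with empty vector (SD, n = 3 each), both above the reference percentile. The difference was 1.21 log2 units (standard error 0.09), a 2.31-fold higher signal, and it ranked 18 from the top among 22215 probe sets. In arrays of cell populations, a change in the share of cells carrying a transcript and a change in its amount per cell cannot be told apart.

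**Figure D1:**
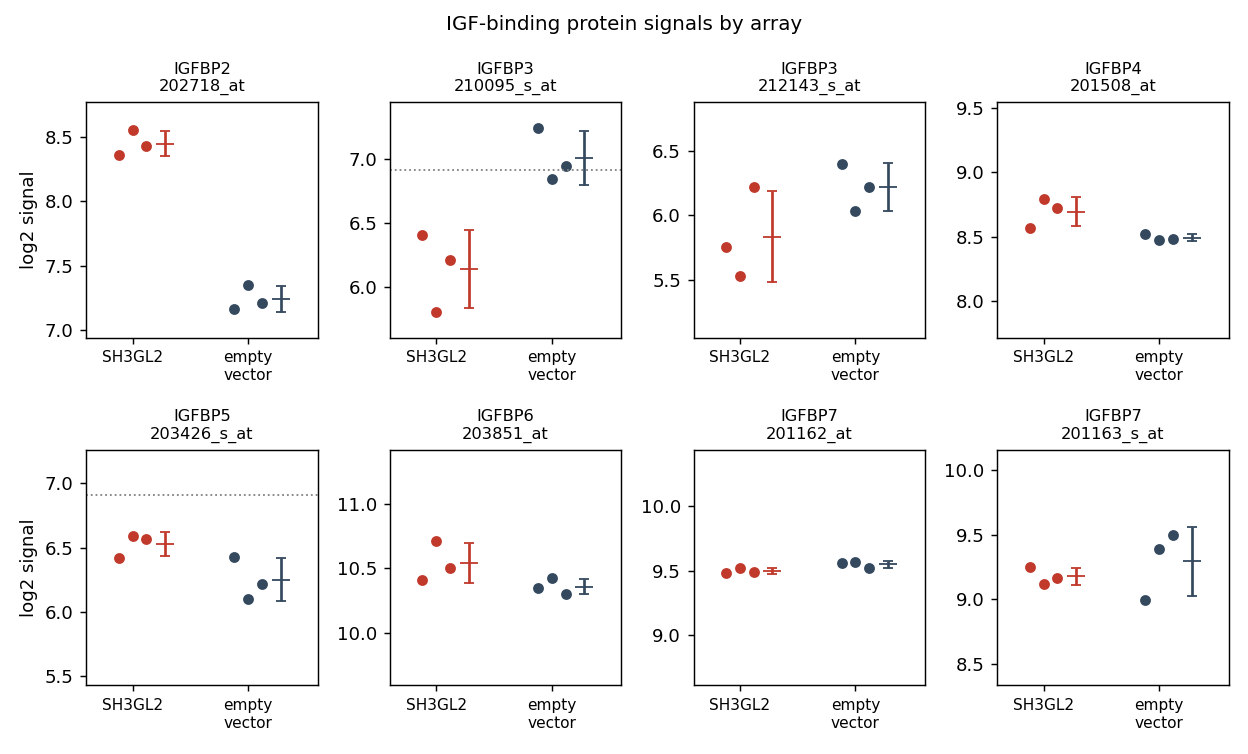
Log2 signal of 8 probe sets of the IGF-binding proteins on each array, SH3GL2 left and empty vector right, with the group mean and SD (n = 3) beside the points and the reference percentile of 6.91 as a dotted line where it falls in view; all panels span the same number of log2 units. The 3 SH3GL2 arrays of IGFBP2 sit between 8.36 and 8.55, above all empty vector arrays, whereas those of IGFBP3 (210095_s_at) sit between 5.81 and 6.41, below all empty vector arrays.

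IGFBP3, the main IGF carrier of serum, went the other way. Its probe set 210095_s_at had log2 signals of 6.41, 5.81 and 6.21 with SH3GL2 and 7.24, 6.84 and 6.94 with empty vector. The groups did not overlap, and the means were 6.14 ± 0.31 with SH3GL2 and 7.01 ± 0.21 with empty vector (SD, n = 3 each). The log2 fold change was -0.86 (95% interval -1.18 to -0.55, standard error 0.15, limma adjusted p = 0.00413), so the SH3GL2 signal was 55.0% of that of empty vector. The SH3GL2 mean lay below the reference percentile, so this fall is measured down to a signal that probe sets without a transcript can also give. The other IGFBP3 probe set, 212143_s_at, had log2 signals of 5.75, 5.53 and 6.22 with SH3GL2 and 6.40, 6.03 and 6.22 with empty vector, and both means lay below the reference percentile. It did not pass (log2 fold change -0.38, 95% interval -0.72 to -0.05, adjusted p = 0.238 from limma), and its value hung on single arrays. It was -0.58 without SH3GL2 replicate 3 (adjusted p = 0.0497, which passes) and -0.23 without SH3GL2 replicate 2 (adjusted p = 0.575), within a range of 0.0497 to 0.584 for the adjusted p over the alternatives. The call of 210095_s_at was lost with values floored at the reference median and in an analysis of variance of each probe set, where its adjusted p reached 0.255. The floor left its log2 fold change at -0.86, as all its signals lay above the reference median.

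The other high-affinity binding proteins did not pass in either direction. IGFBP4, an inhibitory binding protein cleaved by the protease PAPPA, had log2 signals of 8.57, 8.79 and 8.72 with SH3GL2 and 8.52, 8.47 and 8.48 with empty vector. The groups did not overlap, yet the log2 fold change was 0.20 (95% interval 0.04 to 0.37, adjusted p = 0.198 from limma). IGFBP6, which binds IGF2 far more tightly than IGF1, had log2 signals of 10.41, 10.71 and 10.50 with SH3GL2 and 10.35, 10.42 and 10.30 with empty vector. These overlapped, with a log2 fold change of 0.18 (95% interval 0.02 to 0.35, adjusted p = 0.250 from limma).

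IGFBP5, a binding protein that also attaches to extracellular matrix, had 5 probe sets, and all of their group means lay below the reference percentile. Their log2 fold changes ran from -0.03 to 0.28 and none passed. The highest belonged to 203426_s_at, with log2 signals of 6.42, 6.59 and 6.57 with SH3GL2 and 6.43, 6.10 and 6.22 with empty vector (95% interval 0.05 to 0.51, adjusted p = 0.200 from limma). In RefSeq (GRCh38.p14) IGFBP5 is the next protein-coding gene to IGFBP2 on chromosome 2 and lies on the other strand, with the ends of both genes facing each other. None of its probe sets showed a difference near that of IGFBP2, though a change in a transcript at or under the reference percentile may not be seen.

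IGFBP7, a more distant relative with low affinity for IGFs, was bright on 2 of its 3 probe sets. Log2 signals of 201162_at were 9.48, 9.52 and 9.49 with SH3GL2 and 9.56, 9.57 and 9.52 with empty vector, a log2 fold change of -0.05 (95% interval -0.19 to 0.08, adjusted p = 0.763 from limma). Those of 201163_s_at were 9.25, 9.12 and 9.16 with SH3GL2, inside the 8.99, 9.39 and 9.50 of empty vector. The difference for that probe set was -0.12 log2 units (adjusted p = 0.696 from limma). The remaining one, 213910_at, lay below the reference median in both groups.

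The receptors differed little between the groups. IGF1R, the signaling tyrosine kinase receptor, had log2 signals of 7.89, 7.84 and 7.92 with SH3GL2 and 7.80, 7.79 and 7.79 with empty vector on 203627_at. The groups lay close together but did not overlap, with a log2 fold change of 0.09 (95% interval -0.07 to 0.25, adjusted p = 0.649 from limma). On 203628_at the SH3GL2 signals of 7.48, 7.47 and 7.49 lay inside the range of the empty vector signals of 7.47, 7.40 and 7.61, and the log2 fold change was -0.01 (95% interval -0.20 to 0.17). The third probe set, 208441_at, lay below the reference percentile. IGF2R, the mannose 6-phosphate receptor that removes IGF2 without signaling through a kinase, had log2 signals of 9.65, 9.69 and 9.74 with SH3GL2 and 9.87, 9.75 and 9.82 with empty vector on 201393_s_at. These did not overlap, and the log2 fold change was -0.12 (95% interval -0.26 to 0.02, adjusted p = 0.401 from limma). The other IGF2R probe set, 201392_s_at, overlapped between the groups with a log2 fold change of -0.05 (95% interval -0.19 to 0.10).

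Both substrates fell. IRS1, an adaptor that links IGF1R and the insulin receptor to PI3-kinase, had log2 signals of 7.86, 7.91 and 8.00 with SH3GL2 and 8.42, 8.31 and 8.47 with empty vector. The groups were well apart, with means of 7.92 ± 0.07 for SH3GL2 and 8.40 ± 0.08 for empty vector (SD, n = 3 each). The log2 fold change was -0.48 (95% interval -0.65 to -0.31, standard error 0.08, limma adjusted p = 0.00346), or 71.9% of the empty vector signal. IRS2, the second main substrate of the same receptors, fell on both of its probe sets. Log2 signals of 209185_s_at were 10.81, 10.61 and 10.83 with SH3GL2 and 11.18, 11.10 and 11.20 with empty vector. Its log2 fold change was -0.41 (95% interval -0.55 to -0.27, standard error 0.07, limma adjusted p = 0.00284). Log2 signals of 209184_s_at were 9.26, 9.13 and 9.35 with SH3GL2 and 9.63, 9.48 and 9.63 with empty vector, and the log2 fold change was -0.33 (limma, standard error 0.08 and adjusted p = 0.0268). Neither IRS2 probe set overlapped between the groups. The IRS1 call was lost in the analysis of variance, and both IRS2 calls were lost there and with floored values. The floor of 4.69 lay under every IRS2 signal and left the IRS2 log2 fold changes at -0.41 and -0.33. It acted only through the fit and adjustment over all probe sets. The call of 209184_s_at was also lost without an intensity trend and without SH3GL2 replicate 1 or 2 or empty vector replicate 1 or 3, and its adjusted p ran from 0.0121 to 0.249 over the settings.

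**Figure D2:**
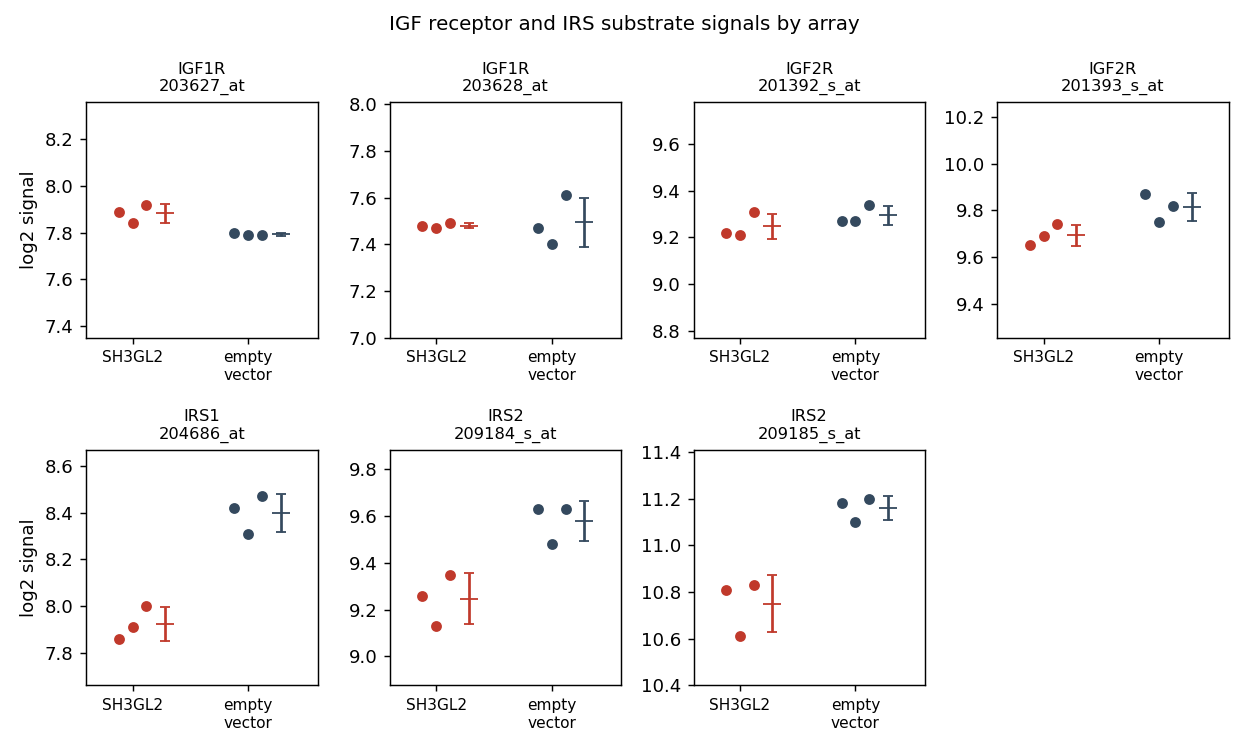
Log2 signal of 7 probe sets of the IGF receptors and the IRS substrates on each array, SH3GL2 left and empty vector right, with the group mean and SD (n = 3) beside the points; all panels span the same number of log2 units. The SH3GL2 arrays of IRS1 sit between 7.86 and 8.00 and those of empty vector between 8.31 and 8.47, while IGF1R on 203628_at overlaps.

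Of the 20 probe sets of the relatives, 0 were called higher by limma, 4 were called lower and 16 did not pass. At an unadjusted p under 0.05 in limma, 3 were higher (IGFBP4, IGFBP6 and 203426_s_at of IGFBP5) and 5 were lower. The share of all probe sets at that unadjusted threshold is not given here, so such counts, here and below, have no background beside them. The analysis of variance called 0 in either direction after adjustment. The 4 lower calls make up 20.0% of the relatives, against 2.18% of all probe sets, but come from 3 genes, and the probe sets of IRS2 share their transcript. They were 1 of 12 probe sets of binding proteins (8.33%) and 3 of 8 of receptors and substrates (37.5%), the latter all of IRS1 and IRS2. Groups did not overlap for 7 of 20 (35.0%), 2 of them higher and 5 lower, against 19.4% over all probe sets. The median log2 fold change of the 20 was -0.03, beside 0.01 over all probe sets. In 8 of the 20 neither group mean exceeded the reference percentile. Replicate 2 of each group had the highest signal of that group for both IGFBP2 and IGFBP6, and the lowest for all 4 probe sets of IGFBP3 and IRS2, a feature picked out after the values were seen. Replicate 2 was the highest of both groups or the lowest of both groups for 9 of the 21 member probe sets and not for the other 12, IGFBP4 and IRS1 among them. The labels do not say whether arrays of the same number were prepared together.

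**Figure D3:**
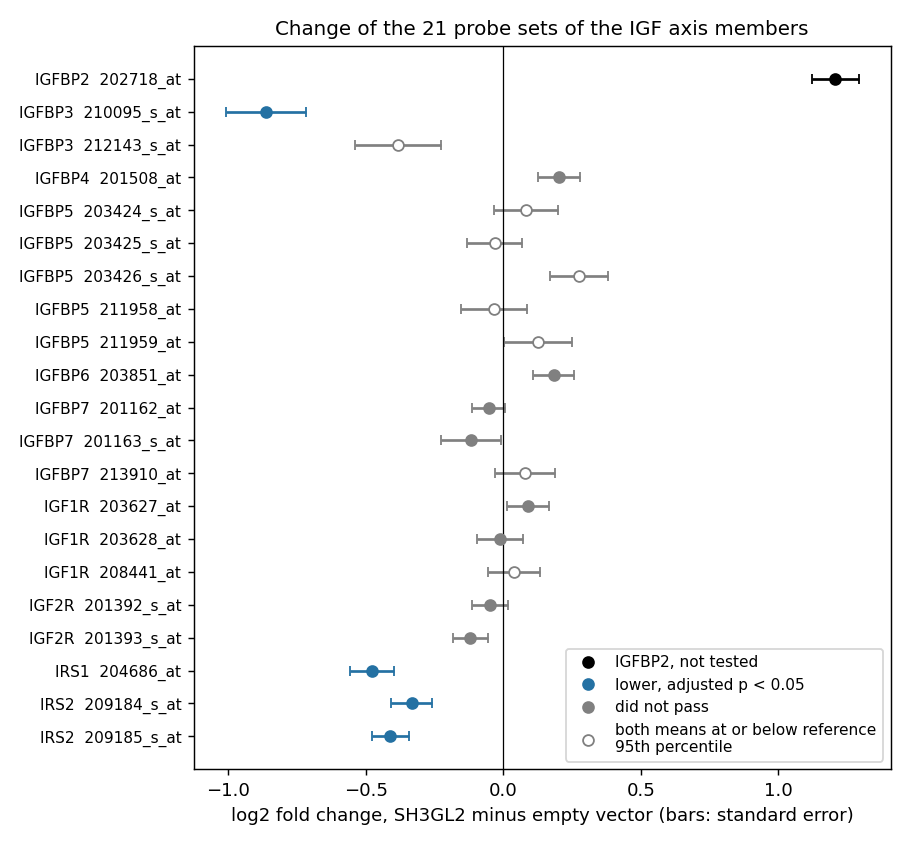
Log2 fold change, SH3GL2 minus empty vector, of all 21 member probe sets, with bars of 1 standard error from limma; blue marks an adjusted p under 0.05, open circles mark probe sets whose group means both lie at or below the reference percentile, and black marks IGFBP2, which was not tested. IGFBP2 at 1.21 stands apart to the right, and the 4 blue points of IGFBP3, IRS1 and IRS2 lie between -0.86 and -0.33.

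**Figure D4:**
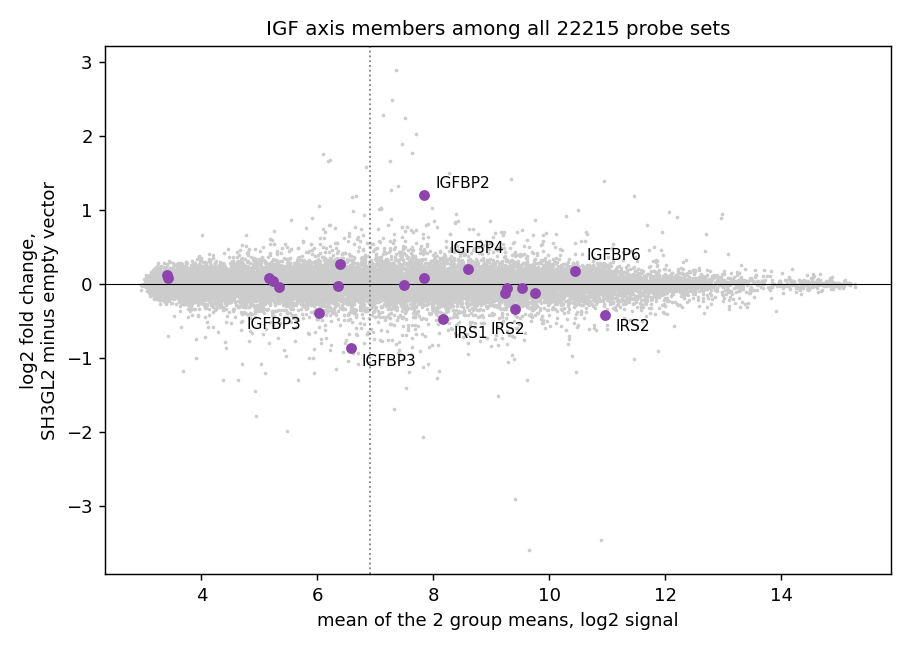
Log2 fold change, SH3GL2 minus empty vector, against the mean log2 signal of the groups for all 22215 probe sets (grey) and the 21 member probe sets (purple), with the reference percentile of 6.91 dotted. IGFBP2 lies near the upper edge of the cloud and IGFBP3 (210095_s_at) near its lower edge, left of the dotted line.

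The promoters of IGFBP2, IRS1 and IRS2 are shown because these genes carried the differences above the reference percentile. Each runs from 250 bases before to 50 bases after the RefSeq gene start in GRCh38.p14, is written along the gene's strand, and carries the GC box (GGGCGG, the core of Sp1 sites, or CCGCCC where it lies on the other strand) in capitals. They are IGFBP2 at chr2:216632578-216632877 (plus strand), IRS1 at chr2:226799771-226800070 (minus strand) and IRS2 at chr13:109786534-109786833 (minus strand).
IGFBP2: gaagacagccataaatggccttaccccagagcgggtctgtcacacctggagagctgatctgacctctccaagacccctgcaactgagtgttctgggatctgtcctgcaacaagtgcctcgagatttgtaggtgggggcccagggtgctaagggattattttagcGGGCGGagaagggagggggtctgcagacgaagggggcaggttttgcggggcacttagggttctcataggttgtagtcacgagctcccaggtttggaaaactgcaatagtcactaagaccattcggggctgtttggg
IRS1: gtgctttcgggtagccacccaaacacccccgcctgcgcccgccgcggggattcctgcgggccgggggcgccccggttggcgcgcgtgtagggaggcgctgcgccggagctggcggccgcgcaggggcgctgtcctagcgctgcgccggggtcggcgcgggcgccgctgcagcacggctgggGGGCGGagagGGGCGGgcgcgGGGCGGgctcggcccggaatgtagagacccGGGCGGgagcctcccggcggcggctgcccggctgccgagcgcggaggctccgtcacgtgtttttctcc
IRS2: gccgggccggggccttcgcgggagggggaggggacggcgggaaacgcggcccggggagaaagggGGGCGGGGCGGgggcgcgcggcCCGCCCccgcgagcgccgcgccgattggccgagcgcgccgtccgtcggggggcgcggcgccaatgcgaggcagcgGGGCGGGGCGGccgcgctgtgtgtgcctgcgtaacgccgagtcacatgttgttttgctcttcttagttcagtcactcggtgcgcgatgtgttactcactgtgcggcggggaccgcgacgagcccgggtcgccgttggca
The IGFBP2 window held 1 GC box, that of IRS1 held 4 and that of IRS2 held 5, in which pairs share letters. GC content was 55.3% for IGFBP2, 79.3% for IRS1 and 75.7% for IRS2, beside a median of 58.7% over 35116 promoters of the same length. Among members without a called probe set, GC content and GC boxes were 79.7% and 2 for IGF1R, 78.7% and 6 for IGF2R and 74.0% and 2 for IGFBP4. They were 59.0% and 0 for IGFBP5 and 61.7% and 1 for IGFBP6. IGFBP3, which fell, had 74.7% and 2. On either strand a GC box was present in 45.0% of all promoters and in 8 of the 9 members that matched an entry. The 35116 promoters were not filtered by gene type, so their values may not be those of protein-coding genes alone. The letters TATAAA (11.5% of promoters) and GTAAACA, the core bound by FOXO factors (3.42% of promoters), were found in none of these 3 windows. The matches describe the letters only, and no binding was measured. Each window covers 1 annotated gene start. Which start these cells use was not measured, so a window may miss the promoter in use.

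The wider pathway was taken from lists of 72 genes, of which 60 had a probe set of their own, 118 in all. Of these 118 probe sets, 2 (1.69%) were called higher, 6 (5.08%) were called lower and 110 did not pass, beside 1.99% called higher and 2.18% called lower over all probe sets. Their median log2 fold change was -0.003. The share called higher lies near that of all probe sets, and the 6 lower calls come from 4 genes, so the values below describe single genes and not the pathway. The ligand IGF1 had 4 probe sets, all below the reference percentile, with log2 fold changes of -0.07 to 0.04 and no call. IGF2 had no probe set annotated to it alone and is given no value. Among 9 probe sets of IGF1, IGFALS, IGFBP1, INSR and INSRR limma called 0, with 1 at an unadjusted p under 0.05. Among 19 of the IGFBP proteases and their inhibitors, such as PAPPA, which frees IGF from IGFBP4, it called 0, with 5 at an unadjusted p under 0.05. The 4 probe sets of the IGF2 mRNA-binding proteins gave 0 calls and 0 at an unadjusted p under 0.05.

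The lower calls were of RHEB, PIK3R1, FOXO1 and ITGB1. RHEB, the small GTPase that activates mTORC1, fell on 2 of its 5 probe sets. On 213404_s_at it had log2 signals of 10.72, 10.63 and 10.73 with SH3GL2 and 11.18, 11.19 and 11.54 with empty vector, a log2 fold change of -0.61 (limma, standard error 0.09 and adjusted p = 0.000951). On 201453_x_at the log2 fold change was -0.39 (adjusted p = 0.000147 from limma), a probe set whose suffix marks probes that can also match other transcripts. The other 3 probe sets did not pass, with log2 fold changes of 0.03 on 201452_at, -0.04 on 201451_x_at and -0.38 on 213409_s_at. PIK3R1, the regulatory subunit through which PI3-kinase docks on IRS proteins, fell on 1 of its 3 probe sets. On 212249_at it had log2 signals of 8.90, 8.64 and 8.87 with SH3GL2 and 9.27, 9.13 and 9.27 with empty vector, a log2 fold change of -0.42 (limma, standard error 0.08 and adjusted p = 0.0115). Its other probe sets had log2 fold changes of -0.26 and -0.24 and did not pass.

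FOXO1, a transcription factor held out of the nucleus by AKT, fell on both of its probe sets. On 202724_s_at it had log2 signals of 9.55, 9.49 and 9.56 with SH3GL2 and 9.91, 9.81 and 9.94 with empty vector, a log2 fold change of -0.35 (limma, standard error 0.06 and adjusted p = 0.00651). On 202723_s_at the log2 fold change was -0.34 (adjusted p = 0.0165 from limma). The other 10 probe sets of FOXO factors and genes known as their targets did not pass. ITGB1, the beta-1 integrin subunit, fell on 1 of its 5 probe sets, the only one above the reference percentile, with a log2 fold change of -0.25 (adjusted p = 0.0275 from limma on 211945_s_at).

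The 2 higher calls were GSK3B, a kinase that AKT inhibits, and CCN3, a secreted matricellular protein whose amino-terminal domain resembles the IGFBPs. GSK3B (209945_s_at) had log2 signals of 9.15, 9.16 and 9.25 with SH3GL2 and 8.86, 8.84 and 8.89 with empty vector, a log2 fold change of 0.32 (limma, standard error 0.07 and adjusted p = 0.0149). CCN3 (214321_at) had log2 signals of 7.68, 8.03 and 7.80 with SH3GL2 and 7.40, 7.38 and 7.55 with empty vector, and a log2 fold change of 0.39 (limma, standard error 0.10 and adjusted p = 0.0447). The CCN3 call was lost in 10 of 15 other settings, and its other probe set had a log2 fold change of 0.18 and did not pass. CCN1, a relative of CCN3, had log2 fold changes of -0.23 and -0.17 and did not pass. The call of RHEB on 201453_x_at held in all 15 settings, and the other called probe sets of the pathway lost theirs in 1 to 7 of them.

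**Figure D5:**
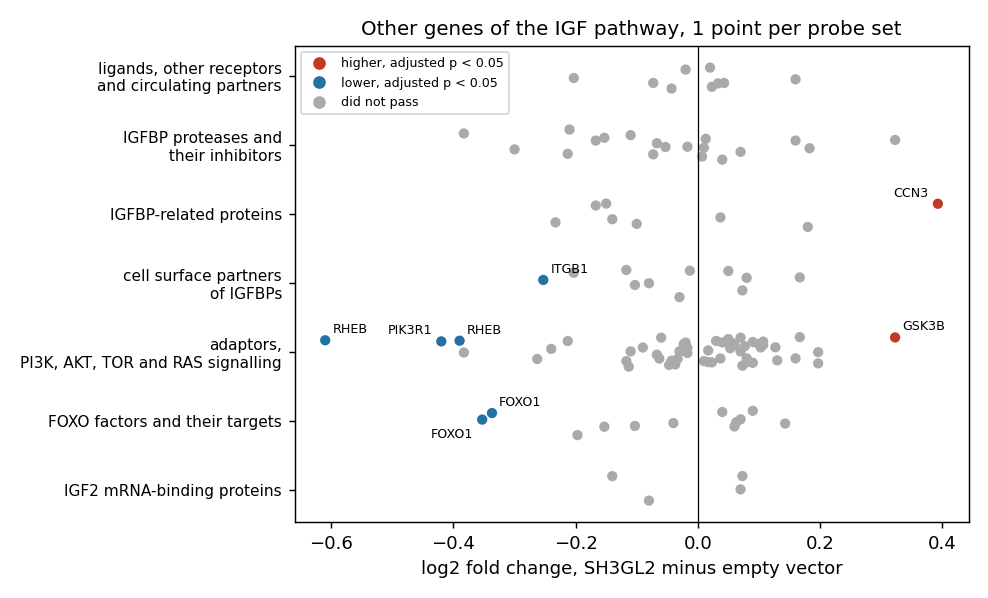
Log2 fold change, SH3GL2 minus empty vector, of the 118 probe sets of other IGF pathway genes, 1 row per list and 1 point per probe set, with red for higher and blue for lower at an adjusted p under 0.05 in limma; heights within a row are spread at random. The 2 red points (CCN3 and GSK3B) and 6 blue points (RHEB, PIK3R1, FOXO1 and ITGB1) stand among grey points most of which lie nearer 0, and some grey points lie as far out as they do.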

How the data were processed

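Total RNA of SUM-159 cells was hybridized to Affymetrix U133A 2.0 arrays by the authors, 3 per group, and scanned with GCOS software. The submitters' processing notes name MAS5 without a version. The authors' deposited values were log2 signals, and whether and how arrays were scaled to each other is not given in the sources used here. Groups were taken from the sample labels.

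The values were used as deposited. Of 22277 probe sets, 62 controls were left out. The annotation gave 19064 probe sets 1 symbol, 1043 several and 2108 none, and no gene was named from a probe set with several. The difference between groups was fitted with limma 3.58.1 in R 4.3.3 (lmFit, then eBayes with an intensity trend, two-sided) and Benjamini-Hochberg adjustment over 22215 probe sets, with a threshold of 0.05. The fit was tested on simulated data. Promoters came from RefSeq, and figures were drawn with matplotlib 3.10.9 in Python 3.11.15. An exact permutation test over 3 against 3 arrays cannot go below p = 0.1. Of all probe sets, 51.4% had a mean signal above the reference percentile.

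The members and lists were chosen with earlier results of these data known. Named were all members, up to 6 called genes of each pathway list by the smallest adjusted p, the IGF ligands, and the 5 probe sets most like IGFBP2. Alternatives were quantile normalization, centring, an offset of 16, a floor, a filter on dim probe sets, other variance models, an analysis of variance, a replicate block, gene means and leaving out each array.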

Additional observations from a re-analysis of the deposited data

How the results depend on the processing

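The log2 fold change of IGFBP2 ran from 1.13 to 1.26 over 12 other settings, 1.16 to 1.26 when single arrays were left out. Of these settings, the floor, the filter on dim probe sets and the replicate block could not move it. The relatives called lower, 4 in the report, numbered 1 with values floored at the reference median, 0 in the analysis of variance (4 lower and 2 higher at an unadjusted p under 0.05) and 3 to 5 without single arrays. Those called higher numbered 0 in every setting run. Pathway probe sets called higher, 2 in the report, numbered 1 with arrays centred on their median, with 16 added before log2, with the floor and without an intensity trend, and 0 in the analysis of variance (6 at an unadjusted p under 0.05). They numbered 0 without SH3GL2 replicate 3 or empty vector replicate 1 or 2, 1 without SH3GL2 replicate 2 or empty vector replicate 3, and 2 without SH3GL2 replicate 1. Those called lower, 6 in the report, numbered 2 with the floor, 1 in the analysis of variance, 10 with the replicate block and 3 to 7 without single arrays, the 3 without empty vector replicate 3. Over all probe sets, the analysis of variance called 33 higher and 44 lower and the floor 135 and 160, against 441 and 485. The floor lay under every signal of the called relatives and called pathway probe sets, so their log2 fold changes were unchanged. Of 291 results of single probe sets of the relatives under another setting, 278 kept their side of the threshold, 12 lost a call and 1 gained one; of 176 of named pathway probe sets, 144 kept it and 32 lost a call, and no called value changed sign. Leaving out 1 array ended calls of PIK3R1 and of FOXO1 on 202723_s_at (without empty vector replicate 1 or 3, adjusted p up to 0.0541 and 0.0740), GSK3B (without SH3GL2 replicate 3 or empty vector replicate 1 or 2, up to 0.105), ITGB1 (without replicate 2 or 3 of either group, up to 0.122) and CCN3 (without any array but SH3GL2 replicate 1, up to 0.166). The mean over the probe sets of a gene, in place of the brightest, gave 0.09 for IGFBP5 against 0.28, and 0.04 for IGF1R against 0.09. For IGFBP3 it gave -0.62 against -0.86, and for IRS2 -0.37 against -0.41. It gave -0.03 for IGFBP7 against -0.05, and -0.08 for IGF2R against -0.12.

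Residual correlations between arrays of the same replicate number were -0.01, 0.13 and 0.15, and not every pair exceeded 0.1, so the numbers were not taken as pairs. The best residual match of 4 of 6 arrays was one with the same number. With the replicate block the calls over all probe sets were 506 higher and 573 lower. Each number has 1 array per group, so the block cannot change a log2 fold change, that of IGFBP2 included. Signal over background limits IGFBP5, IGF1 and the SH3GL2 side of IGFBP3, and the number of arrays limits every value.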

Other observations

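Among probe sets of other genes, 5 had array values nearest to those of IGFBP2, by the root mean square difference of values centred on their own mean over 6 arrays. KAZN, which encodes a protein of cell junctions, was nearest with a difference of 0.113 log2 units and group means of 8.05 with SH3GL2 and 6.72 with empty vector. S100A2, a calcium-binding protein of basal epithelia, differed by 0.125, with group means of 11.65 with SH3GL2 and 10.25 with empty vector. HCLS1, an actin-binding protein best known from blood cells, differed by 0.126. The tetraspanin TSPAN7 differed by 0.127 and the steroid-converting enzyme AKR1C2 by 0.128. All 5 had a higher mean with SH3GL2, with log2 fold changes of 0.97 to 1.39. The measure picks probe sets with a change of the same size, so their direction is part of the choice.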
